A study of Mus musculus with 78 samples.

Results

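The genes described here are the enzymes and binding proteins of histone acetylation, taken from a list of 40 symbols that are all present among the 55367 symbols of both deposited count tables. They comprise 10 acetyltransferases, 11 zinc-dependent deacetylases, 7 sirtuins, 10 readers and 2 corepressors. Histone acetyltransferases, the writers, move the acetyl group of acetyl-CoA onto lysines of histone tails, which loosens chromatin and marks active promoters and enhancers. Deacetylases and the NAD-dependent sirtuins, the erasers, remove it, and proteins with bromodomains or YEATS domains, the readers, bind the acetylated lysine. ACSS2 makes acetyl-CoA from acetate, including acetate formed from ethanol, and part of it works in the nucleus of neurons, where it supplies writers. The question set for these genes was whether loss of ACSS2 shifts the transcripts of any class, and how the classes are laid out over brain regions.

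The libraries were made from poly(A) RNA of 12 adult C57BL6/J mice, 3 of each sex and genotype. The KO mice carried a constitutive CRISPR deletion of Acss2 between introns before exon 3 and after exon 7, made in embryos and backcrossed for 3 generations, and the WT mice did not carry it. Both genotypes had drunk ethanol at 15% by volume in the drinking in the dark model, first with a choice of water and then with ethanol as the liquid on offer, so no group is free of ethanol. Because the deletion is present in every cell from the embryo on, an effect of its absence in the adult cannot be told apart from one in development. The 7 dissected regions gave 40 KO and 38 WT libraries. Both striatal and both hippocampal regions had 6 KO and 6 WT libraries each, amygdala and cortex 6 KO and 5 WT, and prefrontal cortex 4 KO and 4 WT, of which 1 was male KO.

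Depth split the regions into 2 sets. The 47 libraries of amygdala, dorsal hippocampus and both striatal regions held 4454420 to 14487778 counts, and the 31 from cortex, prefrontal cortex and ventral hippocampus held 629635 to 1228828. A floor of 3 counts was worth 0.207 to 0.673 CPM (a gene's counts scaled to the library's total) in the deeper set and 2.44 to 4.76 CPM in the shallower, counting error only. Of the 39 libraries labelled female, 1 had the Y-linked Ddx3y above 10 CPM and lacked Xist above 100 CPM. It is the prefrontal cortex library of mouse 23, labelled female and WT. Its Acss2 level, 67.3 CPM, was within the range of a WT library. The genotype value of Hdac9 in prefrontal cortex and counts of calls are given with and without this library. Other values of prefrontal cortex include it. Acss2 itself averaged 6.80 ± 0.649 CPM (SD, n = 6) in KO and 50.8 ± 5.53 CPM (n = 6) in WT when counts were summed per mouse, a log2 fold change of -2.89 ± 0.08 (SE). Across the 7 regions its log2 fold change lay between -2.70 and -3.27, with an adjusted p under the threshold of 0.05 in each (edgeR quasi-likelihood test).

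All 40 genes were counted in every library. Because longer transcripts collect more reads, levels are compared between genes as CPM per kb of exonic length, averaged over the 7 regions. Hdac11, the class IV deacetylase, stood first at 65.1 CPM per kb. It was followed by Brd2, a bromodomain protein of the BET family, at 25.1, by Sirt2, a largely cytoplasmic sirtuin abundant in myelinating cells, at 23.1, by Hdac2 at 22.9 and by Hdac5 at 20.4 CPM per kb. The lowest were Sirt5, a mitochondrial sirtuin that removes succinyl and malonyl groups, at 1.70, Hdac4 at 2.60, Hdac9 at 2.67, Hdac8 at 2.81 and Mllt3 at 3.21 CPM per kb.

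Within classes, level per kb differed as much as between them. Among acetyltransferases, Kat2a (GCN5, the catalytic subunit of SAGA) was highest at 19.6 CPM per kb and Kat6b lowest at 3.35, while the paralogs Ep300 and Crebbp stood at 5.20 and 3.68. The class I deacetylase Hdac2 was present at 22.9 CPM per kb against 4.76 for its close relative Hdac1, and both are catalytic subunits of the same corepressor complexes. Among readers, Brd2 at 25.1 and Mllt1 at 19.2 CPM per kb stood above Mllt3 at 3.21, the paralog of Mllt1 with the same YEATS domain. Of the corepressors, Ncor1 had 18.1 and Sin3a 7.60 CPM per kb. These are descriptions with no test, and exonic length came from GENCODE M21, which may not be the annotation the authors counted on.

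**Figure D1:**
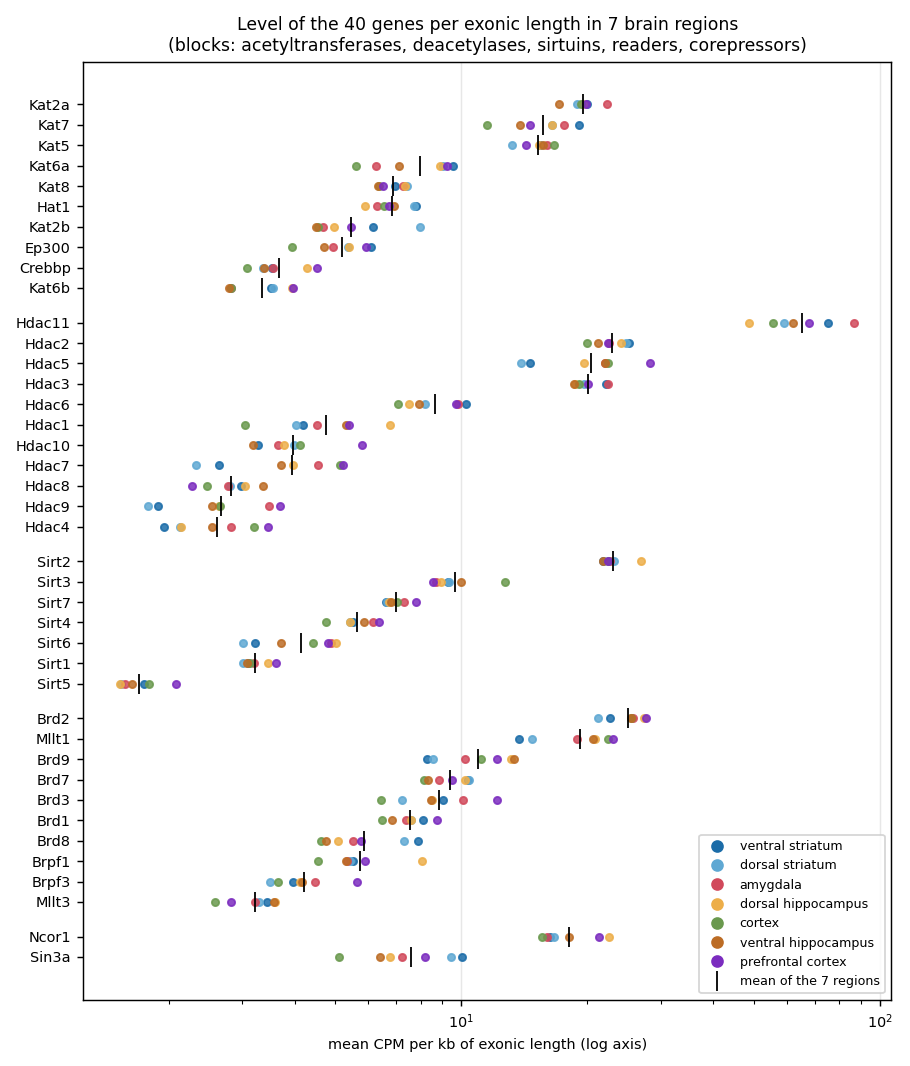
Mean CPM per kb of exonic length (log axis) of each of the 40 genes, 1 point per brain region, with a black tick for the mean of the 7 regions. Hdac11 stands apart at 48.7 to 87.0 CPM per kb, and Sirt5 is lowest on average at 1.70.

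None of the 40 genes differed between KO and WT when the counts of each mouse were summed over the 4 regions present in all 12 mice. At an adjusted p under 0.05, 0 of 40 were called, beside 1 of 16215 genes (0.00617%), which was Acss2. At an unadjusted p under 0.05 the counts were 0 of 40 and 576 of 16215 (3.55%), and KO and WT ranges were apart for 0 of 40 and 0.105% of all genes. Log2 fold changes of the 40 genes ran from -0.11 to 0.15, so every fitted difference was smaller than 1.2-fold. The 95% interval of each of the 40 lay inside a 1.5-fold change in either direction, which bounds the change that 6 mice a genotype could have missed in these sums. Deeper regions weigh more in the sums. Ventral hippocampus gave 629635 to 1206013 counts of mouse totals of 18431701 to 29245883. In mouse 13, a WT male, dorsal striatum alone gave 14487778 of the 29245883 counts. The median log2 fold change of the 40 genes was 0.00030, beside -0.00029 for all genes tested.

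By class, the median log2 fold change in the mouse sums was -0.019 for the 10 acetyltransferases, 0.012 for the 11 zinc-dependent deacetylases, -0.012 for the 7 sirtuins, 0.019 for the 10 readers and 0.09 for the 2 corepressors. All 5 MYST acetyltransferases (Kat5, Kat6a, Kat6b, Kat7 and Kat8) had values below 0, between -0.06 and -0.012, none of which passed the test. Of the 40 genes 20 were below 0, and in amygdala alone Kat6b was above 0. No class was tested as a set. Sin3a, the scaffold of the complex that carries Hdac1 and Hdac2, had the smallest p of the 40 genes. Its sums were 38.3, 49.1 and 56.3 CPM (lowest, median and highest) in 6 KO mice and 38.5, 45.9 and 48.0 CPM in 6 WT mice, so the ranges overlapped. The log2 fold change was 0.15 ± 0.09 (SE; adjusted p = 1.00 in edgeR's quasi-likelihood test), and it was 0.09 without mouse 2. Hdac11 gave -0.08 ± 0.06, or -0.05 without mouse 13, and Kat5 -0.06 ± 0.05, or -0.04 without mouse 23, neither past the test.

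**Figure D2:**
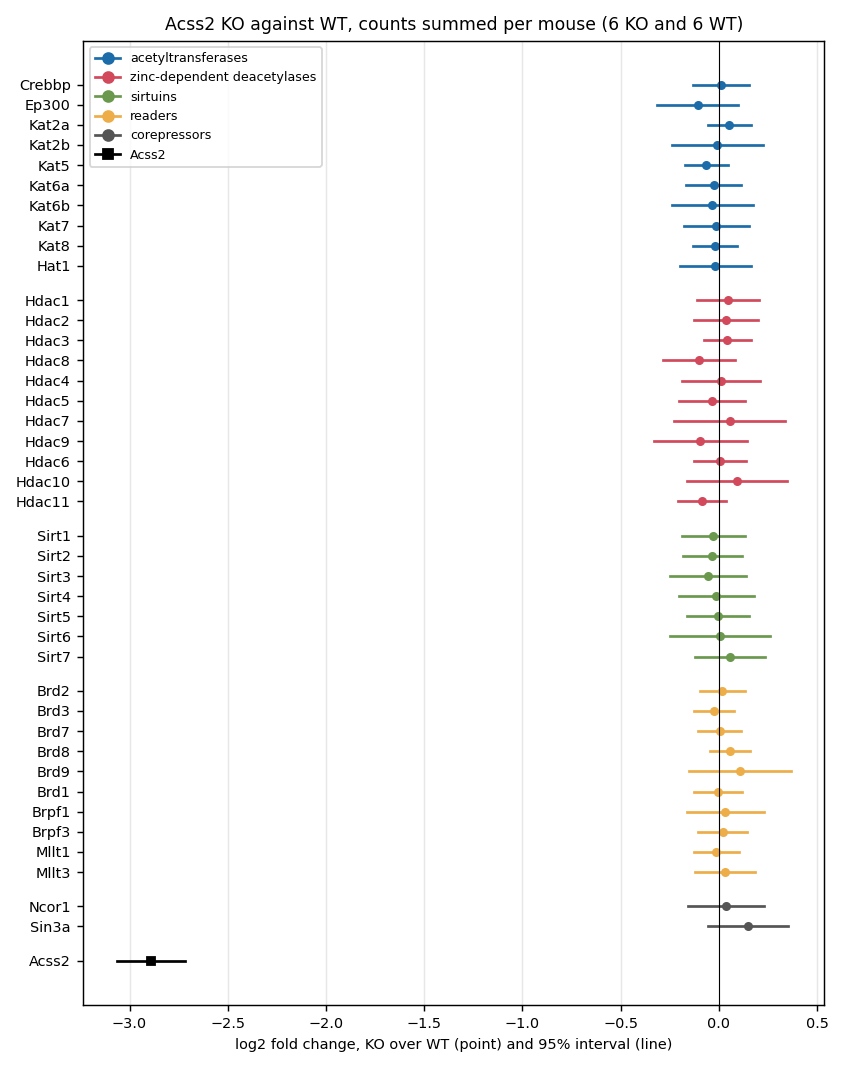
Log2 fold change of KO over WT (points) with 95% intervals (lines) for the 40 genes in counts summed per mouse (6 KO and 6 WT), coloured by group, with Acss2 below. The 40 points lie between -0.11 and 0.15, and Acss2 lies at -2.89.

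Region by region the result was the same in count. Over the 7 regions 277 tests of these genes passed the filter on low counts, and 0 were called. Left out by the filter were Sirt4 and Sirt5 in cortex and Sirt5 in ventral hippocampus. The share of all genes called was 0.00739% in ventral striatum, 0.00723% in dorsal striatum, 0.00699% in amygdala, 0.00722% in dorsal hippocampus, 0.0103% in cortex and 0.00996% in ventral hippocampus, which is Acss2 alone in each, and 0.0949% (10 genes) in prefrontal cortex. At an unadjusted p under 0.05, 8 of the 277 tests passed (2.89%), while the share of all genes was 7.31% in ventral striatum, 1.50% in dorsal striatum, 3.32% in amygdala, 2.69% in dorsal hippocampus, 6.70% in cortex, 5.04% in ventral hippocampus and 8.11% in prefrontal cortex. KO and WT ranges were apart for 0 of the 277, against 0.406%, 0.0506%, 0.175%, 0.0939%, 0.597%, 0.149% and 3.68% of all genes in the same order.

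The 95% interval lay within 1.5-fold for 33 of 40 genes in ventral striatum, 37 in dorsal striatum, 39 in amygdala and 38 in dorsal hippocampus. In the shallower set this held for 25 of 38 genes in cortex, 27 of 39 in ventral hippocampus and 19 of 40 in prefrontal cortex. For the other members there the interval reached past 1.5-fold, with a median distance from estimate to bound of 0.34 in cortex, 0.36 in ventral hippocampus and 0.41 in prefrontal cortex on the log2 scale. Positive values numbered 27 of 40 genes in both ventral striatum and amygdala, 18 in dorsal striatum and 16 in dorsal hippocampus. In the shallower set they numbered 19 of 38 in cortex, 18 of 39 in ventral hippocampus and 20 of 40 in prefrontal cortex. In amygdala the median was 0.03, beside 0.00040 for all genes. In ventral striatum, the region named in the title of the series, the median was 0.06, beside 0.00090 for all genes. The 10 readers had a median of 0.13 there, with 9 of 10 above 0 and 0 called. The reader with the smallest p was Brd8, a bromodomain subunit of the TIP60 complex, at 82.9, 88.5 and 93.9 CPM (lowest, median and highest) in KO and 77.4, 79.0 and 84.2 CPM in WT. Its log2 fold change was 0.14 ± 0.07 (edgeR quasi-likelihood adjusted p = 0.647). Beside it, the summed level of 8 striatal projection neuron markers was 1046 to 6898 CPM in KO and 438 to 9226 CPM in WT ventral striatum, with 0 of 8 called, and its part in the Brd8 value was not tested. The members with the next smallest p had values below 0. Sirt3, a mitochondrial deacetylase, had 43.3, 46.9 and 67.1 CPM in KO and 38.5, 64.2 and 71.9 CPM in WT, a log2 fold change of -0.24 ± 0.13. Hdac11 had 239.5, 264 and 310 CPM in KO and 255, 306 and 407 CPM in WT, a log2 fold change of -0.19 ± 0.11 that was -0.13 without mouse 13. Both had an edgeR adjusted p of 0.647, and both pairs of ranges overlapped.

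The other members with small p differed from region to region. In amygdala Kat6b, a MYST acetyltransferase of histone H3, had 46.3, 48.2 and 58.0 CPM in KO and 41.7, 42.99 and 49.4 CPM in WT, a log2 fold change of 0.22 ± 0.07 (edgeR adjusted p = 0.993) that was 0.12 with offsets for gene length and GC content. Sin3a (0.19 ± 0.09) and Ncor1 (0.19 ± 0.11, or 0.11 without mouse 12) followed in amygdala with the same adjusted p. In dorsal hippocampus Sin3a had 36.2, 40.2 and 44.7 CPM in KO and 28.8, 33.3 and 38.97 CPM in WT, or 0.28 ± 0.10 on the log2 scale (edgeR adjusted p = 1.00). Both pairs of ranges overlapped. Hdac8, an X-linked class I deacetylase, had 10.97, 12.2 and 16.6 CPM in KO and 12.9, 16.2 and 20.8 CPM in WT dorsal hippocampus, or -0.30 ± 0.14, and Mllt3 gave 0.21 ± 0.10, both with an edgeR adjusted p of 1.00. In dorsal striatum the smallest p among the 40 genes was that of Ep300, with a log2 fold change of -0.14 ± 0.09 (edgeR adjusted p = 1.00) that was -0.08 without mouse 12. Hdac2 (0.10 ± 0.08, or 0.06 without mouse 2 or mouse 23) and Brd1 (-0.08 ± 0.07) came next, with the same adjusted p. Striatal projection neuron markers summed to 435 to 9148 CPM in KO and 250 to 8991 CPM in WT dorsal striatum, with 0 of 8 called. The part of this spread in the dorsal striatum values was not tested.

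In cortex the general coactivator Ep300 (p300) had 30.8, 48.7 and 68.4 CPM in 6 KO libraries and 48.2, 67.5 and 74.5 CPM in 5 WT libraries. The lowest KO library lay below all WT libraries, but the ranges overlapped. The log2 fold change was -0.44 ± 0.17 (edgeR adjusted p = 0.728), with -0.27 in males alone and -0.67 in females alone. The female fit had 3 KO and 2 WT libraries. In it 10.6% of all genes had an unadjusted edgeR p under 0.05, against 2.95% in males. Crebbp, the paralog of Ep300, is part of the same class. The 2 members had a median of -0.39 in cortex and -0.31 in prefrontal cortex, with neither called. The medians of all genes were 0.0021 and 0.0013. In ventral hippocampus Crebbp was above 0. Of the class medians by region, only these and that of the readers in ventral striatum are given. In cortex Kat6a stood at -0.36 ± 0.15 and Hdac7 at 0.39 ± 0.17, both with an edgeR adjusted p of 0.728. In ventral hippocampus the smallest p belonged to Brd8, at 0.32 ± 0.15 (edgeR adjusted p = 0.982), followed by Crebbp at 0.27 ± 0.14 and Hdac4 at 0.35 ± 0.19. Striatal projection neuron markers there summed to 149 to 4031 CPM in KO, with a median of 196, and to 158 to 223 CPM in WT, with 0 of 5 tested called, and their part in the Brd8 value was not tested.

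The smallest p of all 277 was that of Hdac9 in prefrontal cortex. Hdac9 had 37.8, 41.7, 42.2 and 53.7 CPM in the 4 KO libraries and 47.6, 66.9, 67.3 and 76.4 CPM in the 4 WT libraries. The highest KO library was above the lowest WT library, and otherwise WT was higher. The log2 fold change was -0.61 ± 0.19 (edgeR adjusted p = 0.297), and it was -0.64 without the library of mouse 23 (edgeR adjusted p = 0.281). In the same region the summed level of 8 striatal projection neuron markers was 685 to 2075 CPM in KO and 229 to 366 CPM in WT, with 5 of 8 called higher in KO. The summed levels of 6 endothelial markers (185 to 204 against 208 to 287 CPM) and 6 neuronal markers (4095 to 4677 against 4714 to 5141 CPM) were also apart, with none of these markers called. The 10 oligodendrocyte markers summed to 2553 to 11403 CPM in KO and 1748 to 3314 CPM in WT, ranges that overlapped, with 0 called. The part of these differences in the Hdac9 values was not tested. Next in prefrontal cortex were Brd1 at -0.34 ± 0.17 (edgeR adjusted p = 0.684) and Brd7, a bromodomain subunit of a BAF remodeler, at -0.30 ± 0.17 (edgeR adjusted p = 0.725). In bulk tissue, fewer cells of a type and less RNA per cell cannot be told apart.

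The title of the series points to males, so each sex was also fitted alone. No member was called in any of the 13 fits of 1 sex in 1 region. All genes called made up 0.00706% in male amygdala, 0.00721% in male and 0.00707% in female dorsal hippocampus, 0.0103% in male and 0.0398% in female cortex, 0.00996% in male and 0.00993% in female ventral hippocampus, 0.452% in female prefrontal cortex, and 0.00% in the other fits. The female prefrontal cortex fit had 3 KO and 2 WT libraries, and 1 of those 2 WT libraries is the doubted one of mouse 23. In male ventral striatum 0 of 13623 genes were called (0.00%), Acss2 included. At an unadjusted p under 0.05 it was 2 of the 40 genes and 9.84% of all genes, and KO and WT ranges were apart for 5 of the 40 and for 16% of all genes. Those 5 genes were Sirt6, Brpf1, Kat2a, Kat5 and Hat1. The median log2 fold change of the 40 genes there was 0.12, beside 0.020 for all genes. In female ventral striatum the ranges were apart for 3 of the 40, which were Brd8, Brd2 and Sin3a, and for 7.55% of all genes, and the median was -0.0071, beside -0.022 for all genes.

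Sirt6, a nuclear sirtuin of histone H3, had 7.77, 10.6 and 11.7 CPM in male KO and 6.41, 6.504 and 7.09 CPM in male WT ventral striatum, a log2 fold change of 0.61 ± 0.22 (edgeR adjusted p = 0.493). Females did not show this order: Sirt6 had 7.08, 10.3 and 10.95 CPM in KO and 8.25, 10.4 and 10.7 CPM in WT. Brpf1, a scaffold of MYST complexes, had 42.5, 44.05 and 44.3 CPM in male KO and 32.4, 36.7 and 37.6 CPM in male WT, with an edgeR adjusted p of 0.496. Hat1, which acetylates new histone H4 before its deposition, had 17.5, 21.7 and 23.5 CPM in male KO and 25.8, 26.6 and 28.3 CPM in male WT, with an edgeR adjusted p of 0.532. With 3 mice a genotype these are values that did not pass the test.

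Whether KO acted differently in females and males was tested as an interaction in 6 regions. It called 0 of 40 genes in each, and 0.00% of all genes. The 95% interval of this interaction lay within 1.5-fold for 11 of 40 genes in ventral striatum and 13 in dorsal striatum. It did so for 18 in amygdala, 14 in dorsal hippocampus, 2 in cortex and 1 in ventral hippocampus. For the other members a sex difference of the KO effect above 1.5-fold could have been missed. At an unadjusted p under 0.05 it was 1 member in ventral striatum and 1 in dorsal striatum, 0 in amygdala and dorsal hippocampus, 3 in cortex and 5 in ventral hippocampus, against 3.84%, 4.76%, 4.42%, 1.33%, 5.41% and 6.63% of all genes in that order. Females and males also did not differ in any of the 40 genes in the mouse sums, where 9 of 16215 genes (0.0555%) were called and 3.30% of all genes, against 0 members, had an unadjusted p under 0.05. Ranges of the sexes were apart for 0 members and 0.308% of all genes. Hdac6 and Hdac8, both on the X chromosome, had log2 female over male values of -0.02 ± 0.06 and 0.05 ± 0.08. The smallest p was that of Brd1 (-0.11 ± 0.06), followed by Hdac1 (-0.13 ± 0.07, or -0.07 without mouse 23) and Sirt1 (0.12 ± 0.07), all with an edgeR adjusted p of 1.00.

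A further 67 genes of the same machinery, such as subunits of the NuRD, CoREST, SAGA, NuA4 and MSL complexes and other bromodomain proteins, gave the same count. In the mouse sums 66 of them were tested and 0 were called, with a median log2 fold change of 0.0069. In the regions between 59 and 65 were tested and 0 were called. The 2 with the smallest p in the sums were Ing4, a reader of histone H3 lysine methylation in the Kat7 complexes, at 0.54 ± 0.23 and a mean of 1.16 CPM in KO and 0.822 CPM in WT, and Dpf1, a neuronal subunit of the BAF remodeler, at 0.16 ± 0.09. Their adjusted p was 1.00 (edgeR).

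Regions, in contrast, differed in many of these genes. Each region was set against the mean of the others in its depth set, with sex and genotype in the model. Libraries of the same mouse entered as separate units, and the mouse as a block was an alternative run. Ventral striatum had 8 of the 40 genes called higher and 14 lower, where 20.9% and 20.4% of all genes were. Dorsal striatum had 5 higher and 14 lower (24.6% and 24.3% of all genes), amygdala 13 and 11 (25.4% and 23.7%), and dorsal hippocampus 15 and 6 (26.5% and 25.8%). In the shallower set, cortex had 2 higher and 8 lower (19.8% and 18.7% of all genes), ventral hippocampus 2 and 4 (13.1% and 12.9%), and prefrontal cortex 14 and 2 (18.7% and 17.8%). As a share of the 40 genes the calls in either direction came to 55%, 47.5%, 60%, 52.5%, 25%, 15% and 40% in that order. These shares lay on either side of those of all genes. The median log2 difference of the 40 genes was highest in prefrontal cortex (0.19), dorsal hippocampus came next (0.10), and the other 5 regions were between -0.09 and -0.020. With offsets for gene length and GC content prefrontal cortex had 5 higher and 3 lower, keeping 6 of its 16 calls. Its median was then 0.098, beside 0.088 in dorsal hippocampus. In WT libraries alone prefrontal cortex had 7 higher and 0 lower, with a median of 0.15, beside 0.13 in dorsal hippocampus.

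**Figure D3:**
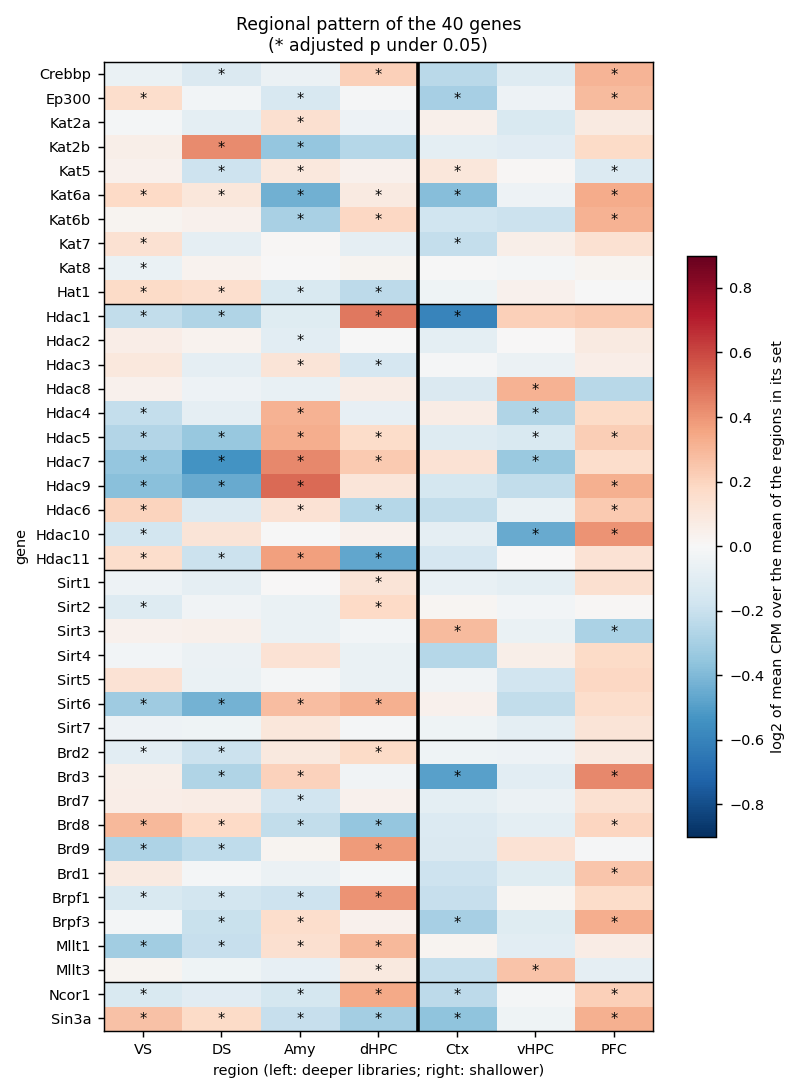
Log2 of each gene's mean CPM in a region over the mean of the regions of its depth set (colour), with deeper regions left of the black line and shallower ones right, and asterisks where the region differed from the others of its set (edgeR adjusted p under 0.05). Hdac4, Hdac5, Hdac7 and Hdac9 are red in amygdala and blue in ventral striatum.

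The 4 class IIa deacetylases, Hdac4, Hdac5, Hdac7 and Hdac9, all had their highest mean of the deeper set in amygdala and lower means in both striatal regions. These proteins have weak catalytic activity of their own, bind MEF2 transcription factors, and leave the nucleus of a neuron when activity phosphorylates them. On the GRCm38 build (GENCODE M21), all on the minus strand, Hdac4 lies at chr1:91928779-92195699, Hdac5 at chr11:102194432-102230166, Hdac7 at chr15:97792664-97844502 and Hdac9 at chr12:34047580-34917095. Their promoters are printed because all 4 genes were called higher in amygdala and lower in ventral striatum. The sequences are RefSeq promoters of the GRCm38.p6 build, 250 bases before to 50 after a start, written 5′ to 3′ on the strand of the gene. Capitals mark the GC box GGGCGG, searched on both strands, and in Hdac5 a match to the MEF2 motif.

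Hdac4, chr1:92180292-92180591: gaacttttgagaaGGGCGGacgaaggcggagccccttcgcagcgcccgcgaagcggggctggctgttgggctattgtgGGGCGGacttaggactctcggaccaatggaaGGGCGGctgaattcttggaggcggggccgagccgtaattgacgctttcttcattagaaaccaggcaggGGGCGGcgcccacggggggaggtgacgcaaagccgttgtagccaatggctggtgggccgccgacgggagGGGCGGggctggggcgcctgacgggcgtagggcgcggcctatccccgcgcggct
Hdac5, chr11:102230123-102230422: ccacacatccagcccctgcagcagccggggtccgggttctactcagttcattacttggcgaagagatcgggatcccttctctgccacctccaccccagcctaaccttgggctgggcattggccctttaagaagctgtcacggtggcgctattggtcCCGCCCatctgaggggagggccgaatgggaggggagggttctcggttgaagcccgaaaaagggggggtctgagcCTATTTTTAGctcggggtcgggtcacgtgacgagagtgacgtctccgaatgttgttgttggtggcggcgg
Hdac7, first of 4 entries, chr15:97831446-97831745: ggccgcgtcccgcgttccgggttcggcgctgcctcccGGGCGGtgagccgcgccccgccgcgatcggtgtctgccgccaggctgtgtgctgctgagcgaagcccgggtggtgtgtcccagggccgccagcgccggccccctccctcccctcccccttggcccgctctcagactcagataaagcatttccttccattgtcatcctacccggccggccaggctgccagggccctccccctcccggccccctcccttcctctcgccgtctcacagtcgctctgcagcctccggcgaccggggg
Hdac9, first of 2 entries, chr12:34917046-34917345: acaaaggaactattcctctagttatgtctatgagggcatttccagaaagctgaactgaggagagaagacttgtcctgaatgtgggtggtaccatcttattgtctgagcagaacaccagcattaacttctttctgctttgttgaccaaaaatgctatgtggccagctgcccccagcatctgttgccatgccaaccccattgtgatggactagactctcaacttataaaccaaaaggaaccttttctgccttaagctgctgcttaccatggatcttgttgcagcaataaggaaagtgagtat
Hdac9, second entry, chr12:34528840-34529139: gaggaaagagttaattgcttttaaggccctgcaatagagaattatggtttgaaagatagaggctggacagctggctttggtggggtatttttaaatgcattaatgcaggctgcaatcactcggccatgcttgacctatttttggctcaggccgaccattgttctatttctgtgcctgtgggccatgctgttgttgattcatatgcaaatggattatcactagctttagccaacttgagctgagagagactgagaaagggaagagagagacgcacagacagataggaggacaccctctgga

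The promoters of the 4 genes differ in composition. Hdac4 holds 5 GC boxes, 32 CpG and 68% G and C, while the first entry of Hdac9 holds 0 GC boxes, 0 CpG and 44% G and C. The MEF2 motif was found in 1 of the 51 promoters of the 35 members that have an entry, Hdac5, starting at base 231, and in 3.19% of 32851 promoters of this length. The GC box was found in 34 of the 51 promoters and in 35.7% of all. A match is a description of letters, and these data hold no measure of binding.

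In CPM, the amygdala had the highest mean of the deeper regions for each of the 4 genes. Hdac9 had 41.1, 46.4 and 74.6 CPM (lowest, median and highest) in 11 amygdala libraries, 29.6, 37.2 and 50.1 in dorsal hippocampus, 16.3, 25.6 and 43.5 in ventral striatum and 15.9, 21.4 and 50.7 in dorsal striatum, 12 libraries each. Hdac5 had 156, 192 and 242 CPM in amygdala, 119, 171 and 218 in dorsal hippocampus, 95.9, 129.7 and 146 in ventral striatum and 102, 119.7 and 149 in dorsal striatum. For Hdac5 all amygdala libraries were above all libraries of both striatal regions, while amygdala and dorsal hippocampus overlapped. The share of all genes so separated between these regions is not given here. Hdac7 had a median of 29.3 CPM in amygdala, 26.4 in dorsal hippocampus, 16.99 in ventral striatum and 14.5 in dorsal striatum. Hdac4 was closer between regions, with medians of 44.8, 34.2, 29.7 and 30.8 CPM in the same order.

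Against the other 3 deeper regions, all 4 were higher in amygdala, by 0.42 ± 0.08 (Hdac4), 0.46 ± 0.06 (Hdac5), 0.62 ± 0.13 (Hdac7) and 0.73 ± 0.13 (Hdac9) on the log2 scale, beside a median of -0.0040 for all genes. The largest edgeR adjusted p of the 4 was 7.75e-05. All 4 were lower in ventral striatum, at -0.30 ± 0.08, -0.36 ± 0.06, -0.43 ± 0.13 and -0.48 ± 0.13. In dorsal striatum Hdac5, Hdac7 and Hdac9 were lower (-0.40, -0.63 and -0.52), and Hdac4 at -0.08 was not called. Dorsal hippocampus had Hdac5 and Hdac7 higher (0.30 and 0.44), and Hdac9 at 0.27 was not called. With offsets for gene length and GC content the Hdac5 call there was lost (0.12, edgeR adjusted p = 0.0874) and Hdac9 was called (0.36, edgeR adjusted p = 0.0105). Hdac9 was also called there with the mouse as a block (0.31, edgeR adjusted p = 0.0254). The contrasts share libraries, so a value high in one region lowers the others.

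Within the same mouse, amygdala was above each striatal region in at least 10 of 11 animals for each of the 4 genes. Such counts come from the same libraries as the calls, so they are not separate evidence. They have no share of all genes beside them, here and in the paragraphs below. Hdac4, Hdac5 and Hdac9 were higher in amygdala than in ventral striatum in 11 of 11 mice, and Hdac7 in 10 of 11. Against dorsal striatum the counts were 10 of 11 for Hdac4, Hdac7 and Hdac9 and 11 of 11 for Hdac5. Against dorsal hippocampus, amygdala was higher in 11 mice for Hdac4, 8 for Hdac5, 8 for Hdac7 and 10 for Hdac9, of 11. Ventral striatum was above dorsal striatum in 5, 8, 8 and 7 of 12 mice in that order of genes, so the striatal regions had no common order. The amygdala calls of all 4 held under every alternative run, including offsets for gene length and GC content and WT libraries alone. In ventral striatum the WT libraries left Hdac7 called and lost Hdac4, Hdac5 and Hdac9 (Hdac9 -0.34, edgeR adjusted p = 0.263), with no change of sign, and in dorsal striatum they lost Hdac9 (-0.55, edgeR adjusted p = 0.0576). Beside these genes, excitatory neuron markers summed to a median of 1373 CPM in amygdala, 1826 in dorsal hippocampus, 165 in ventral striatum and 359 in dorsal striatum, and all 10 oligodendrocyte markers were lower in amygdala and higher in dorsal striatum. Their part in the class IIa values was not tested.

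**Figure D4:**
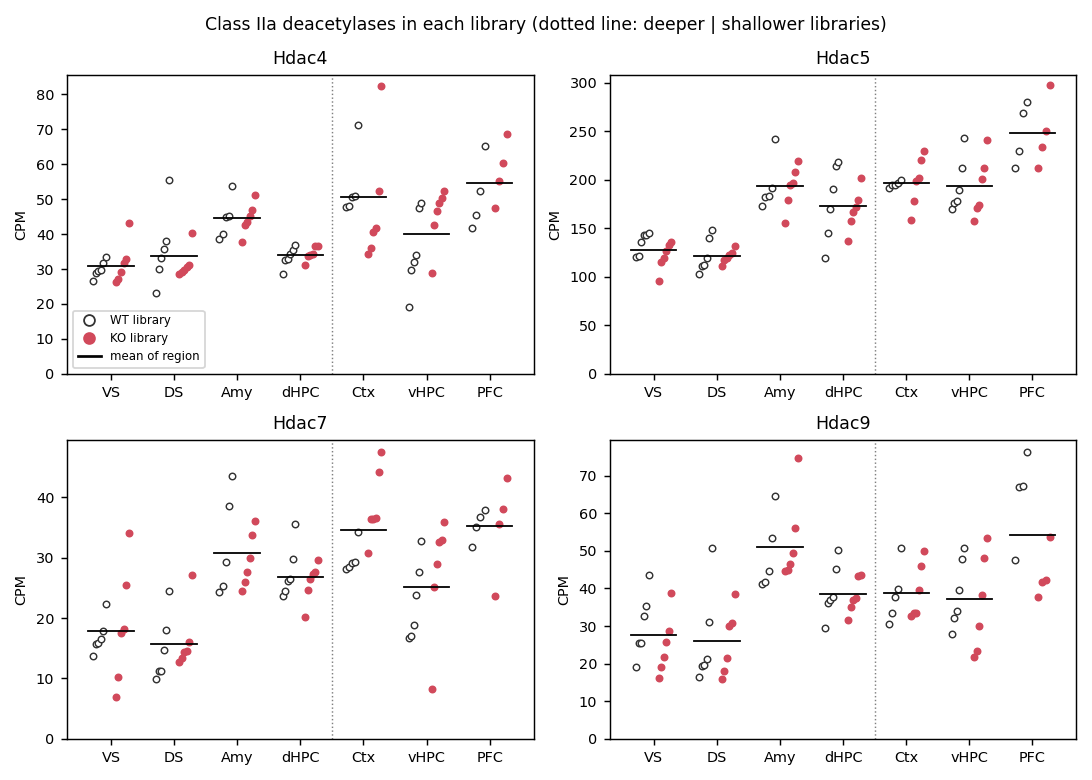
CPM of the 4 class IIa deacetylases in each library by region (open points WT, filled points KO, line the mean of the region), with deeper libraries left of the dotted line. In the deeper set the amygdala mean is highest for all 4, and KO and WT points overlap in every region.

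In the shallower set the same 4 genes had their lowest mean in ventral hippocampus. Hdac7 (-0.48 ± 0.13), Hdac4 (-0.37 ± 0.13) and Hdac5 (-0.18 ± 0.07) were called lower there, and Hdac9 at -0.30 ± 0.12 was not. Prefrontal cortex had Hdac9 (0.43 ± 0.13) and Hdac5 (0.27 ± 0.07) higher. These calls were less firm: with offsets for gene length and GC content Hdac7, at -0.30 (edgeR adjusted p = 0.0735), and Hdac4, at -0.27 (edgeR adjusted p = 0.0888), were no longer called in ventral hippocampus, nor was Hdac5 (-0.015, edgeR adjusted p = 0.909). With the mouse as a block Hdac5 in ventral hippocampus was -0.16 (edgeR adjusted p = 0.0927). In prefrontal cortex the same offsets lost Hdac9 (0.24, edgeR adjusted p = 0.184) and turned Hdac5 to -0.05 (edgeR adjusted p = 0.630). Hdac4 in ventral hippocampus was also lost without any one of mice 3, 11, 12 and 13, with edgeR adjusted p from 0.0532 (mouse 12) to 0.0821 (mouse 3).

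Hdac11, the most abundant member per kb, had 248, 345 and 423 CPM (lowest, median and highest) in amygdala, 239.5, 278 and 407 in ventral striatum, 201, 226 and 257 in dorsal striatum and 137, 190 and 272 in dorsal hippocampus. Its amygdala value was 0.52 ± 0.07 above the other regions on the log2 scale and its dorsal hippocampus value -0.53 ± 0.07, with edgeR adjusted p of 7.22e-08 and 3.76e-08. It was higher in ventral than in dorsal striatum in 12 of 12 mice. The class I deacetylase Hdac1 took the opposite place in dorsal hippocampus. It had 17.8, 24.1 and 27.8 CPM there and 8.51, 14.4 and 20.4 CPM over the other 3 deeper regions, or 0.73 ± 0.08 on the log2 scale (edgeR adjusted p = 8.23e-10), and was higher there than in either striatal region in 12 of 12 mice.

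Readers higher in dorsal hippocampus included Brpf1 and Brd9. Brpf1 had 37.8, 53.1 and 72.7 CPM in dorsal hippocampus and 27.7, 36.7 and 46.6 CPM over the other 3 regions, a log2 difference of 0.62 ± 0.07 (edgeR adjusted p = 1.53e-10). Brd9, a subunit of a BAF remodeler, was higher by 0.60 ± 0.10. Brd8 and Sin3a were higher in both striatal regions and lower in dorsal hippocampus and amygdala, as was Hat1. The Hat1 calls in amygdala and dorsal striatum were lost with offsets for gene length and GC content and in WT libraries alone. In amygdala the Hat1 call was also lost without the low-count filter, and the Sin3a call in WT libraries alone. Brd8 had 77.4, 83.0 and 93.9 CPM in ventral striatum, 60.8, 76.0 and 94.8 in dorsal striatum, 51.9, 59.1 and 67.2 in amygdala and 50.2, 52.8 and 60.9 in dorsal hippocampus.

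All Brd8 values in ventral striatum were above all those in amygdala and dorsal hippocampus. No share of all genes is at hand for such pairs of regions. The log2 difference of Brd8 was 0.39 ± 0.04 in ventral and 0.28 ± 0.04 in dorsal striatum and -0.38 ± 0.04 in dorsal hippocampus. Sin3a gave 0.34 ± 0.07, 0.27 ± 0.07 and -0.33 ± 0.07 in the same regions, and both genes were higher in ventral striatum than in dorsal hippocampus in 12 of 12 mice. Hdac6, a cytoplasmic deacetylase of tubulin, was higher in ventral striatum by 0.24 ± 0.06, and Mllt1, a reader in the super elongation complex, was lower by -0.42 ± 0.08. In WT libraries alone the Hdac6 call was lost (0.21, edgeR adjusted p = 0.161). The striatal projection neuron markers, all 8 of which were called higher in both striatal regions, moved with Brd8 and Sin3a. Their part in these values was not tested. Their summed level ran from 438 to 9226 CPM over the ventral striatum libraries and from 250 to 9148 CPM over the dorsal striatum libraries. In cortex it was 292 to 697 CPM. The lowest dorsal striatum library was at 435 CPM in KO and at 250 CPM in WT. Excitatory neuron markers reached 2132 CPM in KO and 2219 CPM in WT dorsal striatum. Whether any dorsal striatum library held tissue of another region was not tested, and dorsal striatum values include all of them.

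Kat2b (PCAF), a paralog of Kat2a, had 22.2, 40.04 and 51.7 CPM in dorsal striatum and 12.9, 28.4 and 46.2 CPM over the other deeper regions, a log2 difference of 0.62 ± 0.12 (edgeR adjusted p = 2.88e-05). It was higher in dorsal striatum than in amygdala in 11 of 11 mice, and all 10 oligodendrocyte markers were also higher in dorsal striatum, where their summed median was 11418 CPM against 3100 CPM in amygdala. Their part in the Kat2b values was not tested. In amygdala Kat2b was lower by -0.45 ± 0.13, a call lost in WT libraries alone (-0.40, edgeR adjusted p = 0.188).

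Kat6a, a MYST acetyltransferase of the same complexes as Brpf1, was low in amygdala. It had 48.9, 58.1 and 65.3 CPM there and 66.5, 88.0 and 106 CPM over the other 3 regions, so the ranges did not overlap, which was so for 1 of 40 members and 0.0822% of all genes. The log2 difference was -0.57 ± 0.07 (edgeR adjusted p = 1.81e-09), and in 0 of 11 mice was amygdala above any other deeper region. Its paralog Kat6b was lower there by -0.41 ± 0.09. Among sirtuins, Sirt6 was lower in dorsal striatum, with 5.37, 8.38 and 11.6 CPM against 6.41, 12.1 and 18.9 CPM in the other 3 regions, or -0.51 ± 0.10 on the log2 scale. Within mice, Sirt6 was lower in each striatal region than in amygdala (11 of 11 mice) and in dorsal hippocampus (12 of 12). It was higher in ventral than in dorsal striatum in 8 of 12 mice.

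**Figure D5:**
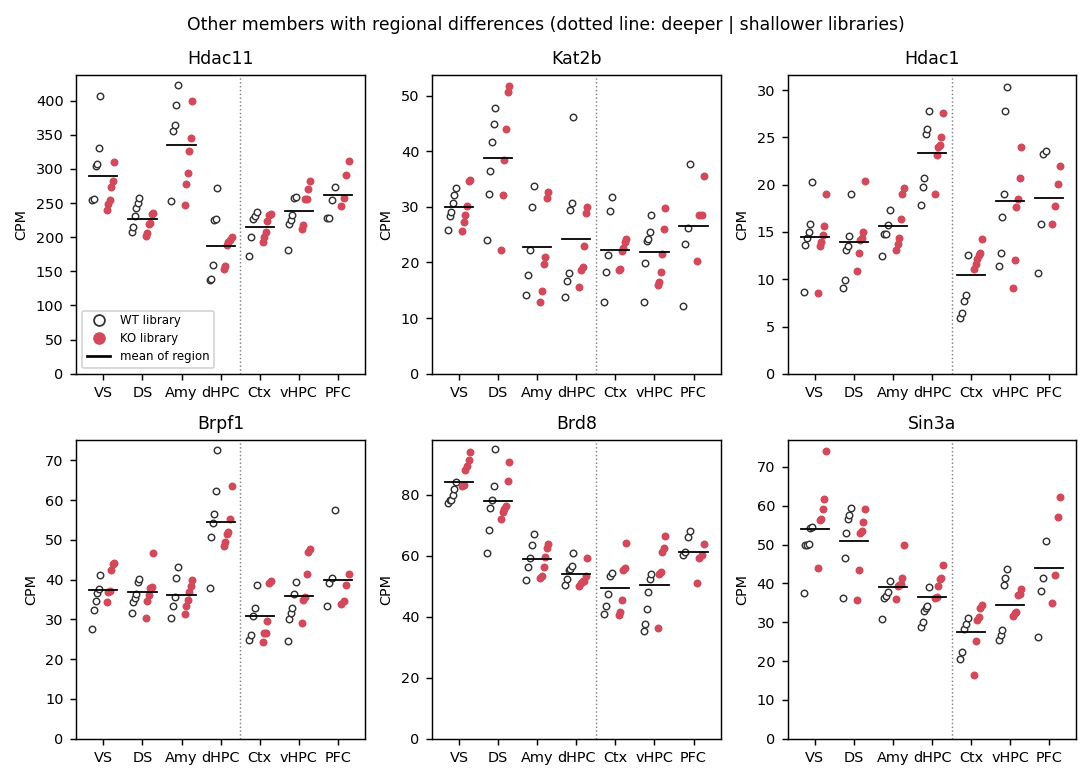
CPM of 6 further members in each library by region (open points WT, filled points KO, line the mean of the region), with deeper libraries left of the dotted line. Hdac11 is highest in amygdala and lowest in dorsal hippocampus within the deeper set, Hdac1 and Brpf1 are highest in dorsal hippocampus, Kat2b in dorsal striatum, and Brd8 and Sin3a in ventral striatum.

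In the shallower set, cortex differed from ventral hippocampus and prefrontal cortex through lower Hdac1 (5.87, 11.6 and 14.3 CPM against 9.08, 18.1 and 30.4 CPM, or -0.78 ± 0.18 on the log2 scale), lower Brd3, a BET reader (-0.59 ± 0.08), lower Kat6a (-0.47 ± 0.11) and higher Sirt3, the main mitochondrial deacetylase. Sirt3 had 52.2, 74.9 and 99.8 CPM in cortex and 37.3, 58.6 and 70.4 CPM in the other 2 regions, a log2 difference of 0.52 ± 0.09 (edgeR adjusted p = 3.25e-05). The Kat6a call was lost in WT libraries alone (-0.32, edgeR adjusted p = 0.136). Prefrontal cortex had higher Brd3, at 68.5, 87.4 and 117 CPM against 40.5, 52.9 and 74.6 CPM (0.66 ± 0.08 on the log2 scale), higher Kat6a (0.48 ± 0.11) and lower Sirt3 (-0.46 ± 0.10), the last lost in WT libraries alone (-0.38, edgeR adjusted p = 0.0739).

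Hdac10, a polyamine deacetylase, was higher in prefrontal cortex (0.60 ± 0.19) and lower in ventral hippocampus (-0.59 ± 0.19), the latter lost with the offsets (-0.48, edgeR adjusted p = 0.0560). With the mouse as a block the prefrontal value of Hdac10 was 0.56 (edgeR adjusted p = 0.0569), and without mouse 6 it was 0.36 (edgeR adjusted p = 0.137). Kat5, the catalytic subunit of TIP60, was 0.23 ± 0.09 in cortex and -0.25 ± 0.09 in prefrontal cortex, and both calls were lost without the low-count filter (edgeR adjusted p = 0.184 and 0.150) and in several fits that left out a mouse. With the mouse as a block the prefrontal value of Kat5 was -0.25 (edgeR adjusted p = 0.0586). Hdac8 (0.48 ± 0.17) and Mllt3 (0.40 ± 0.11) were higher in ventral hippocampus, and Hdac8 was no longer called with offsets for length and GC content (0.40, edgeR adjusted p = 0.0785) or without any one of mice 4, 5, 10 and 23. Without the doubted library of mouse 23, members called numbered 15 in prefrontal cortex, 11 in cortex and 7 in ventral hippocampus, in place of 16, 10 and 6.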

How the data were processed

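Whole-number read counts per gene symbol, deposited by the authors in a table for each sex and not normalized, were used as they stand. The submitters' processing notes name STAR 2.5.2a, SAMtools 1.1, HTSeq 0.6.1, DESeq2 and R 4.0.2 and the builds GRCm38 and mm10, and the annotation and filters are not given in the sources used here. Groups, sex, region and mouse came from the sample titles. The members and the lists of partner and marker genes were chosen with earlier results of these data known. Members to be named followed a rule: Acss2 in each genotype comparison, the 3 smallest p in each genotype and sex comparison, up to 3 called genes in each direction of a region contrast, the 5 highest and 5 lowest per kb and the extremes of each class. Hdac4, Hdac5, Brpf1, Hat1, Sirt6 and Kat2b were also described at places outside that rule, chosen after their values were seen, as were the lists of ranges that did not overlap.

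Fits used edgeR 4.0.16 (quasi-likelihood, TMM, filterByExpr with minimum count 10 and minimum total 15) with limma 3.58.1 in R 4.3.3, on all genes, with Benjamini-Hochberg adjustment over all genes tested and a threshold of 0.05. Genotype comparisons had sex as covariate, and region contrasts had sex and genotype. Values are CPM by column total. A p-value of the genotype and sex comparisons measures the spread between mice of these groups. The region contrasts took each library as a unit, although a mouse gave several. Their p-values measure the spread between libraries and leave out the pairing, except where the mouse was a block. The KO against WT fits of ventral striatum, cortex and the mouse sums were tested on simulated data with independent libraries. The region contrasts, the interactions and the sex comparison were not. Regions of a mouse share its number by the labels: same-mouse deviations in the deeper set correlated at a mean of 0.052 over 69 pairs (-0.49 to 0.62), against -0.024 for 138 pairs of different mice, and in the shallower set at -0.021 over 24 pairs against 0.011 for 49. Alternatives were DESeq2 size factors, no filter on low counts, a Wald test in DESeq2 1.42.0, each sex or WT alone, equal weight of regions, a mouse correlation or block, and each mouse left out. Offsets for exonic length and GC content (loess span 0.5) in the region contrasts, and leaving out 1 prefrontal library, were added after seeing the data. Of the symbols, 53253 had a unique GENCODE M21 entry.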

Additional observations from a re-analysis of the deposited data

Results flagged for a closer look

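In the per-mouse sums of the 6 KO or 6 WT mice, 82 groups of 1 gene and 1 genotype were tested for a sample far from the others, and 3 had one, where chance gives about 1 in 20. Kat8 was 22.5 CPM in KO mouse 6 against 19.99 to 20.7 CPM in the other KO mice. Brd2 was 219 CPM in KO mouse 10 against 175 to 191 CPM, and Brd9 was 102 CPM in the same mouse against 61.7 to 73.9 CPM.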

How the results depend on the processing

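The count of 0 members called in KO against WT, in the sex comparison and in the interactions held in all alternatives run, each mouse left out included, and no member named by the rule reversed its direction. No paired analysis was possible for KO against WT because each mouse has 1 genotype. Members called in the region contrasts numbered, in WT libraries alone, 7 in ventral striatum, 9 in dorsal striatum, 10 in amygdala, 3 in cortex and 7 in prefrontal cortex, from fewer libraries in each fit. With offsets for gene length and GC content they numbered 15 in amygdala, 1 in ventral hippocampus and 8 in prefrontal cortex, and of the 10 calls in cortex 5 were kept; the cause was not tested. With mouse as a block they were 19, 19, 24, 22, 11, 5 and 14 (ventral striatum, dorsal striatum, amygdala, dorsal hippocampus, cortex, ventral hippocampus, prefrontal cortex). Leaving out each mouse gave 16 to 20, 16 to 23, 18 to 25, 20 to 24, 8 to 13, 4 to 6 and 11 to 16 in that order.

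All genes called moved more. Without the low-count filter KO against WT called 10 in cortex, 101 in ventral hippocampus and 367 in prefrontal cortex, and the interaction called 12 in ventral striatum and 117 in ventral hippocampus. The DESeq2 Wald test called 36 in prefrontal cortex and 4 in the mouse sums, where a mouse correlation gave 6 (20 for sex). Prefrontal cortex called 50 in females alone, where the doubted library of mouse 23 was 1 of 2 WT libraries. It called 32, 23, 79 and 55 without mice 1, 3, 12 and 23. A floor of 3 counts was 2.44 to 4.76 CPM in cortex, ventral hippocampus and prefrontal cortex, against 0.207 to 0.673 CPM in the deeper set. Acss2 was not called in either sex alone in either striatal region, nor in female amygdala.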
